A study of Mus musculus with 2 samples.

Results

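Glycolysis, lactate handling and the response to low oxygen were represented by 35 genes, of which 25 act in glucose uptake, glycolysis and the fate of pyruvate and 10 are known to be induced by hypoxia. They were listed by name and matched to the arrays through RefSeq transcripts, and all 35 were found among the 20653 genes named on the arrays. For a gene with several probes, the probe with the highest mean log2 signal over both arrays was used. The samples were monocytic myeloid-derived suppressor cells (M-MDSCs) from 4T1 tumours, a mouse mammary carcinoma line, grown in female BABL/c mice aged 6 to 8 weeks. All mice had been starved for a day and had received 1000000 4T1 cells under the skin. The normal salt diet (NSD) was chow with 0.4% NaCl and tap water, the high salt diet (HSD) was chow with 4% NaCl and water with 1% NaCl, and both lasted 16 days. Cells were isolated with a magnetic bead kit and mixed in equal numbers within a diet, from 5 NSD and 6 HSD mice, so that each diet is 1 pool on 1 array. No spread between mice can be computed from such pools, and therefore no test of the diet was possible and no p-value is given.

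In glycolysis, glucose enters the cell through facilitative transporters, is phosphorylated by hexokinase and is broken down to pyruvate by a chain of cytosolic enzymes. Pyruvate is either reduced to lactate by lactate dehydrogenase and exported by monocarboxylate transporters, or it enters mitochondria, where pyruvate dehydrogenase kinases restrain its use. Many of these genes are direct targets of the hypoxia-inducible factors (HIFs), which bind a short DNA motif, the hypoxia response element, with the core letters ACGTG or GCGTG. Prolyl hydroxylases that need oxygen mark HIF for degradation, and some of these enzymes are HIF targets themselves.

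The core letters were searched for in the 250 bases before each RefSeq transcription start (assembly GRCm38.p6), on both strands. Matches may overlap, since CACGTG holds ACGTG on both strands and is counted on each. Of the 35 genes, 32 had a promoter entry, and Slc2a3, Bnip3l and Ndrg1 had none. The windows shown belong to the 4 genes with the highest log2 fold changes among those with a single entry, and to Bnip3, which had the lowest log2 fold change. They run 5′ to 3′ along the gene, and capitals mark the matches.
Egln1, chr8:124949255-124949504, minus strand: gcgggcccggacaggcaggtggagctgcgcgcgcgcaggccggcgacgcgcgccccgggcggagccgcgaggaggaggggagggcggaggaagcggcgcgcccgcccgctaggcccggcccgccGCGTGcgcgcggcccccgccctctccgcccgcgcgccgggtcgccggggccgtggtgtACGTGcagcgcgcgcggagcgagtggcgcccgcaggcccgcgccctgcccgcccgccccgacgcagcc
Ankrd37, chr8:45999851-46000100, minus strand: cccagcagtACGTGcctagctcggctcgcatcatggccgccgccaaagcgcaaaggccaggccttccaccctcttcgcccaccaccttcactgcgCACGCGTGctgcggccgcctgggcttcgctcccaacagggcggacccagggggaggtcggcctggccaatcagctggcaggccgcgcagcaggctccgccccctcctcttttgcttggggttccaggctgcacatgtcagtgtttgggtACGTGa
Pgk1, chrX:106186850-106187099, plus strand: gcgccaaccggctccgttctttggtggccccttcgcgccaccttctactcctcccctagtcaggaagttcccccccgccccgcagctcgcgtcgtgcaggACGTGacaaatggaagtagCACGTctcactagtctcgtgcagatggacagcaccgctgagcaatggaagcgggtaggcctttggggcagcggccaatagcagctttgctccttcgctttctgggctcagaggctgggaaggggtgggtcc
Egln3, chr12:54203875-54204124, minus strand: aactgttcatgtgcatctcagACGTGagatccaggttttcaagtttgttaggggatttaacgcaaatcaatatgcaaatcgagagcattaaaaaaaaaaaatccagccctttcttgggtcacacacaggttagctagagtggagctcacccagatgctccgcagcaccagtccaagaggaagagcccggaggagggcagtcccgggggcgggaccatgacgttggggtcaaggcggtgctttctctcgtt
Bnip3, chr7:138909507-138909756, minus strand: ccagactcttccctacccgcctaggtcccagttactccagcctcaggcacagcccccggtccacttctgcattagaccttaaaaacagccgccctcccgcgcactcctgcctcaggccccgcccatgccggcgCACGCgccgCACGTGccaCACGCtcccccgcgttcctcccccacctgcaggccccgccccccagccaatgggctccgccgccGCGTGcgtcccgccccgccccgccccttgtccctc

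The Egln1 window held 1 match to each core, and the Ankrd37 window held 2 of each. Pgk1 had 2 matches to ACGTG and Egln3 had 1. Bnip3, the gene furthest below 0, had the most matches of these windows, 2 to ACGTG and 3 to GCGTG. Over the 45 promoter entries of the 32 genes, some of which overlap, 37 (82.2%) held at least 1 match, against 38.6% of all 32851 promoters. ACGTG was found in 51.1% of the entries and in 16.6% of all promoters. The entries were also richer in CpG dinucleotides, with a median of 14 against 6 for all promoters. Of the 9646 promoters with at least 14 CpG, 67.3% held either core and 25.0% held ACGTG. Those promoters had a median of 22 CpG, so they are not matched to the entries. Of the 13 entries of genes at least 1.5-fold higher with HSD, 76.9% held a match, against 84.4% of the 32 entries of the other genes. Some genes had several entries, and counted by gene a match was found for 9 of 10 and for 20 of 22. ACGTG alone was in 7 of those 13 entries and in 16 of those 32, a small difference the other way. No match was found before Tpi1, which was 1.64-fold higher, nor before Gpi1 and Eno2, which were under 1.5-fold. A match describes letters in the window and does not show a bound site.

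The arrays (Agilent, 1 dye) gave a value for 39413 probes on both, and the scanner software called 71.9% of them well above background with NSD and 72.4% with HSD. All 7 markers of monocytes and M-MDSCs with a probe were well above background on both arrays, among them Itgam (CD11b, log2 fold change 0.090) and Ly6c1 (0.018), while Ccr2 (−0.78) and Cd14 (0.82) differed by over 1.5-fold in opposite directions. So were all 8 neutrophil markers with a probe, and none of them differed by 1.5-fold. Their summed signals were 350876 with NSD and 339266 with HSD, against 102091 and 97212 for the monocyte and M-MDSC markers. All sums given here are of signals before the arrays were scaled, while the log2 fold changes are scaled. The median log2 fold change was 0.074 for the neutrophil markers and 0.090 for the monocyte and M-MDSC markers. B cell and erythroid markers summed to 6089 and 10947.5 with NSD, and to 7077 and 11356.8 with HSD. Their median log2 fold changes were 0.36 and −0.13, and none of these markers differed by 1.5-fold. Of the 7 macrophage markers, 5 were at least 1.5-fold lower with HSD, while C1qb went the other way (50.4 and 58.4, log2 fold change 0.33). The summed signals of the 7 were 14188 and 8678, and C1qa was not well above background with HSD. The summed signal of the 9 carcinoma markers was 180.3 with NSD and 163.9 with HSD, and the median log2 fold change of the 8 usable ones was 0.12. Of these markers, Epcam, Krt8 and Krt18 were at least 1.5-fold higher with HSD at signals of 25.0 or less, while Krt5 (−0.54), Cdh1 (−0.43) and Krt7 (−0.28) were below 0. Their part in the values of the 35 genes was not tested. In such pools, fewer cells of a type and less RNA per cell cannot be told apart.

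Signals are given in intensity units, and a log2 fold change is HSD minus NSD after subtraction of each array's 75th percentile of log2 signal. A gene was counted as higher or lower at 1.5-fold, and a smaller difference is given only as a log2 fold change above or below 0. The scanner software's own error for a log2 fold change was 0.20 for most of the 35 genes, with a range from 0.070 to 0.29. Spots of the same probe on 1 array had a median SD of 0.063 on the log2 scale at 100 intensity units and over (165 probes) and of 0.24 under 20 units (46 probes). Both errors cover the measurement on the array, and neither covers mice or cell preparations.

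Of the 35 genes, 11 were higher with HSD at 1.5-fold and 24 were under that line, and all were well above background on both arrays. A log2 fold change above 0 was found for 33 of the 35 genes (94.3%), against 54.2% of the 16312 genes with a usable probe. The 35 genes were chosen with earlier results of these data known, so the shares given here describe the list and are not a test of it. At least 1.5-fold higher were 11 genes (31.4%), namely Slc2a1, Slc2a3, Aldoc, Tpi1, Pgk1, Pkm, Pdk1, Egln1, Egln3, Ankrd37 and Ddit4, against 9.86% of all genes. None was at least 1.5-fold lower, against 10.3% of all genes. Bnip3 lay just short of that line, below 0 at 1.49-fold, and whether it passed depended on the processing. At least 2-fold higher were Egln1 and Ankrd37 (5.71%, against 2.62% of all genes), and none was at least 2-fold lower (4.17% of all genes). Egln1 was dim with NSD, and after normexp background correction its log2 fold change was 0.68, under 2-fold, while that of Ankrd37 was 1.26. The median log2 fold change was 0.40, against 0.045 over all genes. The difference was larger than the software error for 32 genes and larger than 2 such errors for 17.

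**Figure D1:**
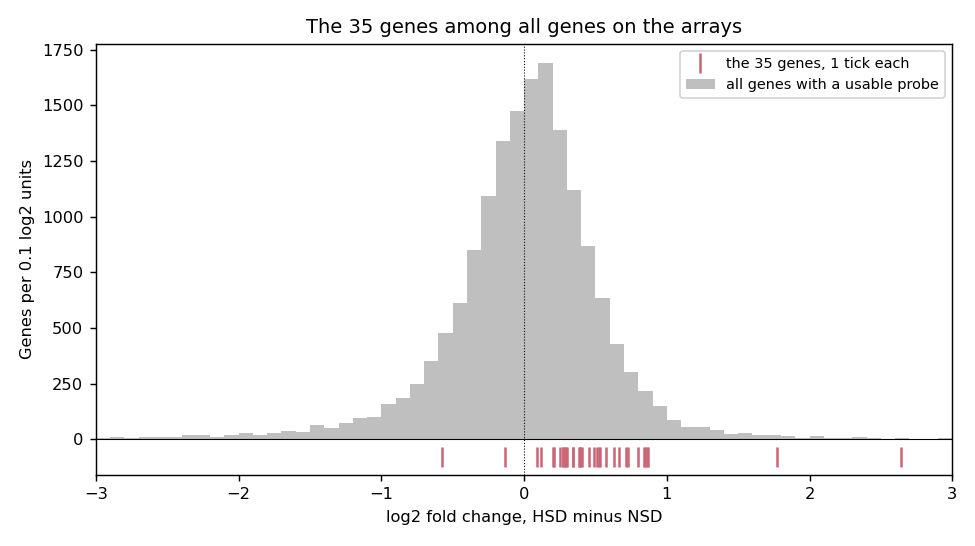
Histogram of the log2 fold change, HSD minus NSD, of all 16312 genes with a usable probe in bins of 0.1 log2 units, with 1 tick under the axis for each of the 35 genes. The ticks lie mostly to the right of 0, with 33 above 0 and 2 far out at 1.77 and 2.64, and genes beyond 3 log2 units are not drawn.

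All genes were divided by mean signal into 5 bins of equal size, since bright genes as a whole lay slightly above 0. In the brightest bin 64.0% of all genes were above 0, with a median log2 fold change of 0.11. That bin held 21 of the 35 genes, 20 of them above 0, with a median of 0.40. From the dimmest upwards, bins 2, 3 and 4 held 5, 7 and 2 of the genes, with medians of 0.45, 0.35 and 0.71, where the medians of all genes were 0.0022, −0.0059 and 0.017. The dimmest bin held none.

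In glucose uptake and the first enzymes 2 of 6 genes were at least 1.5-fold higher, both of them transporters, and the median log2 fold change was 0.45. Slc2a1, the glucose transporter GLUT1, had a signal of 4731 with NSD and 6751 with HSD (log2 fold change 0.63). Slc2a3, the high-affinity transporter GLUT3, had 7136 and 10432 (0.66). Both lay close to the 1.5-fold line and were under it after quantile normalization and cyclic loess, and Slc2a1 also in the deposited log2 values.

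Of the hexokinases, which trap glucose in the cell, Hk3 was at 1381 and 1818 (log2 fold change 0.51) and Hk1 at 4601 and 5585 (0.39). Hk2, the isoform known as a HIF target, was at 2171 and 2133, and its log2 fold change of 0.089 was within the software error and turned to −0.014 after quantile normalization and to −0.012 in the deposited log2 values. Gpi1, glucose-6-phosphate isomerase, was at 32534 and 36317 (0.27). Of the 3 hexokinases, Hk2 thus lay near 0 while Hk1 and Hk3 were above 0 at 1.31-fold and 1.43-fold, under the 1.5-fold line. The difference between these genes was not tested.

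The phosphofructokinase step, where glycolytic flux is controlled, had no gene past 1.5-fold, with 4 of 5 log2 fold changes above 0 and a median of 0.20. Of the enzyme's subunits, Pfkl was at 176.0 and 197.9 (log2 fold change 0.28) and Pfkp at 196.4 and 196.9 (0.12). Pfkm was at 29.4 and 24.8 over 10 spots, with spot SDs of 0.19 and 0.16 log2 units, and its log2 fold change was −0.13, or 0.011 after normexp background correction. Pfkfb3 and Pfkfb4 make fructose 2,6-bisphosphate, the activator of the step. Pfkfb3 was at 3008 and 4007 (0.53), and Pfkfb4 was at 8878 and 9428 (0.20).

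The 9 enzymes from aldolase to pyruvate kinase were all above 0 with HSD, 4 of them at least 1.5-fold higher, with a median log2 fold change of 0.49. Pkm, the pyruvate kinase that makes pyruvate, had 3327 with NSD and 5605 with HSD (0.87). Pgk1, phosphoglycerate kinase, the first step to yield ATP, had 8911 and 14919 (0.86). Tpi1, triose phosphate isomerase, had 1922 and 2911 (0.71). These 3 were past 1.5-fold under all settings tried, while Aldoc, the brain-type aldolase, at 101.7 and 168.1 (0.84), was at 0.51 after normexp background correction.

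The other enzymes of this stretch were under 1.5-fold. Gapdh, glyceraldehyde-3-phosphate dehydrogenase, often used as a reference gene, was at 59782 and 77505 (log2 fold change 0.49). Pgam1, phosphoglycerate mutase, was at 30841 and 37283 (0.39). Aldoa, the main aldolase, was at 31078 and 34761, a log2 fold change of 0.28 that became −0.023 after normexp background correction. For the enolases, Eno1 was at 27871 and 31534 (0.29) and Eno2 at 63.3 and 74.4 (0.35), so that the ubiquitous and the neuronal form lay within the error of each other.

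**Figure D2:**
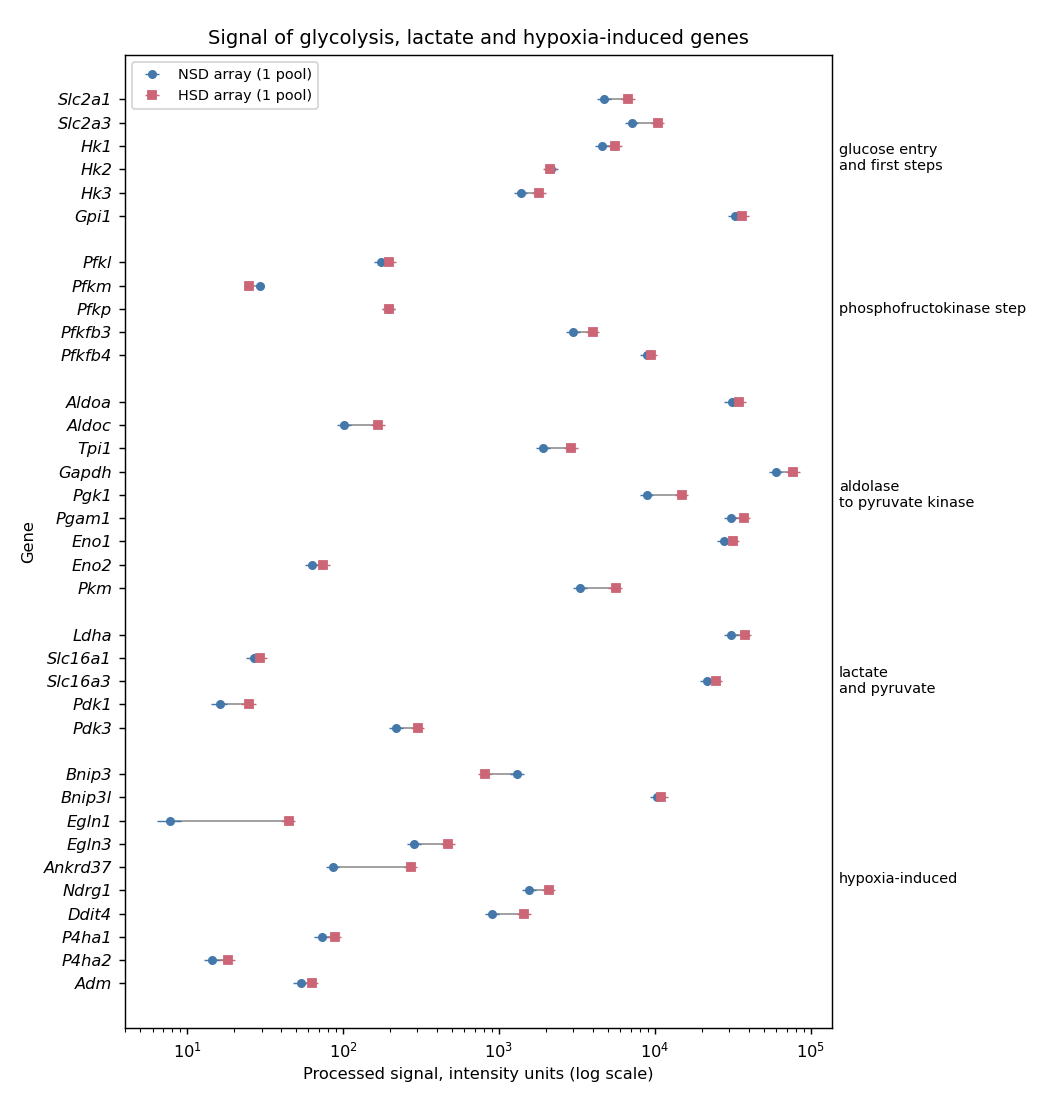
Processed signal in intensity units, on a log scale, of each of the 35 genes on the NSD array (circles) and the HSD array (squares), ordered by role, with bars for the software error of each signal. The HSD square lies to the right of the NSD circle for most genes, with the widest gap for Egln1 (7.75 and 44.7), and to the left for Hk2, Pfkm and Bnip3 before scaling.

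In lactate and pyruvate handling 1 of 5 genes, Pdk1, was past 1.5-fold, and the median log2 fold change was 0.40. Ldha, the lactate dehydrogenase subunit that favours lactate, was at 30913 with NSD and 37811 with HSD (0.40). Slc16a3, the lactate exporter MCT4, was at 21626 and 24591 (0.30), and Slc16a1, the carrier MCT1, at 26.7 and 29.4 (0.25, or 0.14 after normexp background correction).

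The pyruvate dehydrogenase kinases, which hold pyruvate back from mitochondrial oxidation, had the largest log2 fold changes of this group. Pdk1 was at 16.2 and 24.8 (log2 fold change 0.73), or 0.26 and so under 1.5-fold after normexp background correction. Pdk3 was at 219.8 and 301.8 (0.57), just short of the line at 1.49-fold.

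The hypoxia-induced genes spread most, from −0.58 to 2.64, with 9 of 10 log2 fold changes above 0, 4 past 1.5-fold upwards and a median of 0.49. Egln1 encodes the prolyl hydroxylase PHD2, the main oxygen sensor of the pathway. It was at 7.75 with NSD and 44.7 with HSD, 6.24-fold higher (log2 fold change 2.64, software error 0.29). The NSD signal was near the lowest signal called well above background, 4.61, and the log2 fold change was 0.68 after normexp background correction. Its paralogue Egln3, the hydroxylase PHD3, was at 285.7 and 473.9 (0.84), well clear of background. Of all genes with a usable probe, Egln1 and Ankrd37 lay at percentiles 99.7 and 99.3 of the log2 fold change.

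Ankrd37, an ankyrin repeat protein known as a HIF target, was at 86.0 and 271.4, 3.42-fold higher (log2 fold change 1.77, or 1.26 after normexp background correction). Ddit4, also called REDD1, an inhibitor of mTORC1 signalling under stress, was at 906.1 and 1458 (0.80). Ndrg1, a stress-responsive gene, was at 1561 and 2085 (0.53). Ankrd37 and Ddit4 were past 1.5-fold under every setting tried.

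The other members of the hypoxia-induced group were under 1.5-fold. P4ha1 and P4ha2 are subunits of the collagen prolyl hydroxylase. P4ha1 was at 72.9 and 88.2 (log2 fold change 0.39), while its other, dimmer probe was past 1.5-fold at 40.4 and 60.9 (0.71). P4ha2 was at 14.5 and 18.3 (0.45, or 0.17 after normexp background correction). Adm, the vasodilator adrenomedullin, was at 53.5 and 62.7 (0.34). Bnip3l, a receptor for mitophagy, was at 10303 and 11021 (0.21). Bnip3, its paralogue and also a mitophagy receptor, differed from the rest, with 1308 and 810.0 (−0.58, just short of the line at 1.49-fold).

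**Figure D3:**
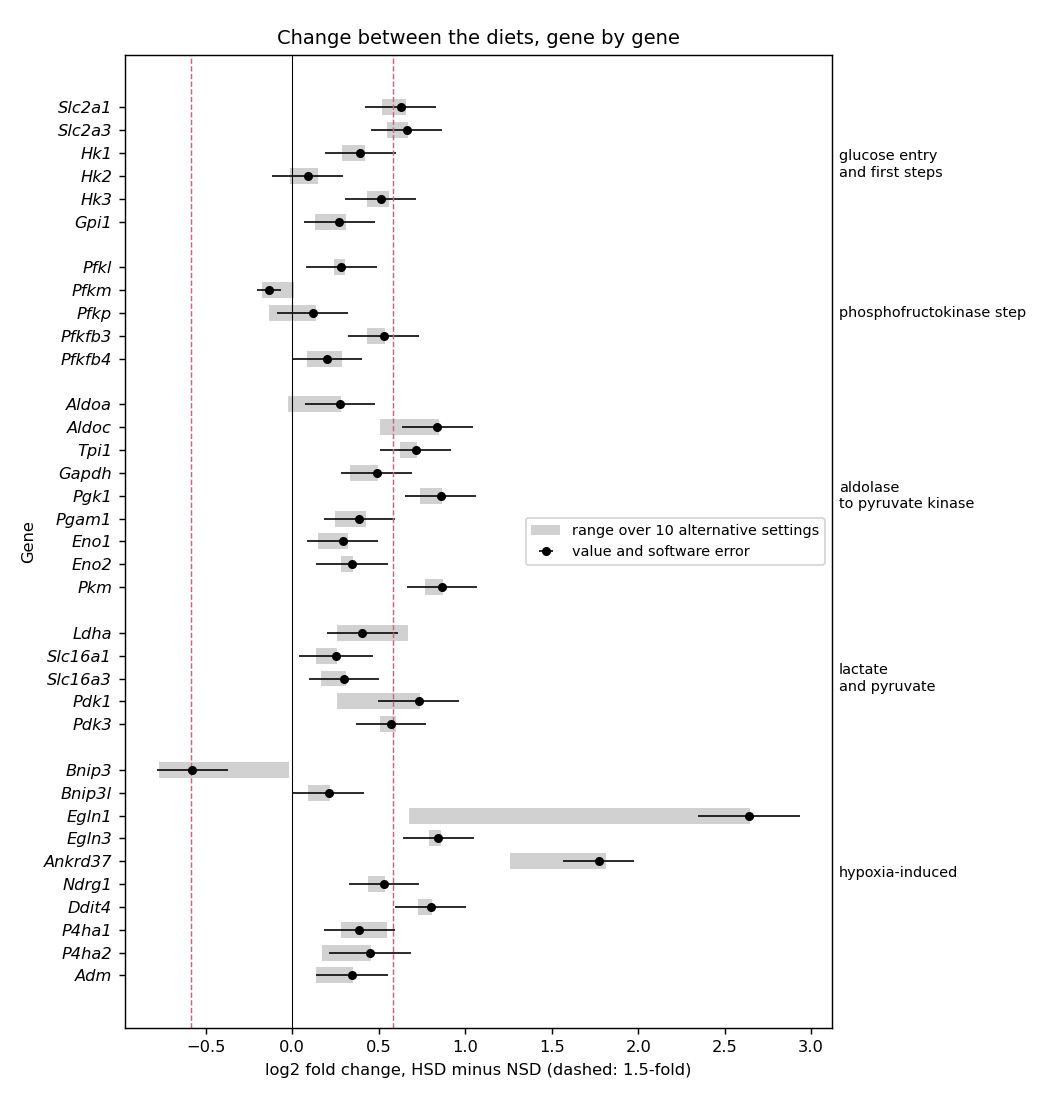
Log2 fold change, HSD minus NSD, of each of the 35 genes by role (points) with the software error (black bars) and the range over the 10 alternative settings (grey boxes), with dashed lines at 1.5-fold. Egln1 and Ankrd37 stand apart on the right with wide grey boxes, Bnip3 lies at the 1.5-fold line on the left, and most other genes lie between 0.2 and 0.9.

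Of the 35 genes, 13 had more than 1 probe, and of all 58 probes 54 were above 0 and 4 below. The 7 probes of Gapdh ran from 0.34 to 0.61 and the 3 of Ldha from 0.40 to 0.73, with the brightest Ldha probe the lowest. Both probes of Egln3 gave 0.84. Probes of Bnip3 disagreed, since the brightest was at −0.58, another was at 976.4 and 889.7 (−0.020) and the dimmest at 26.5 and 30.2 (0.30). The lower value of Bnip3 thus rests on 1 of 3 probes. The second probe of Pfkp, at 6.20 and 3.81, was not well above background with HSD, and with the median over its probes Pfkp was at −0.13.

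**Figure D4:**
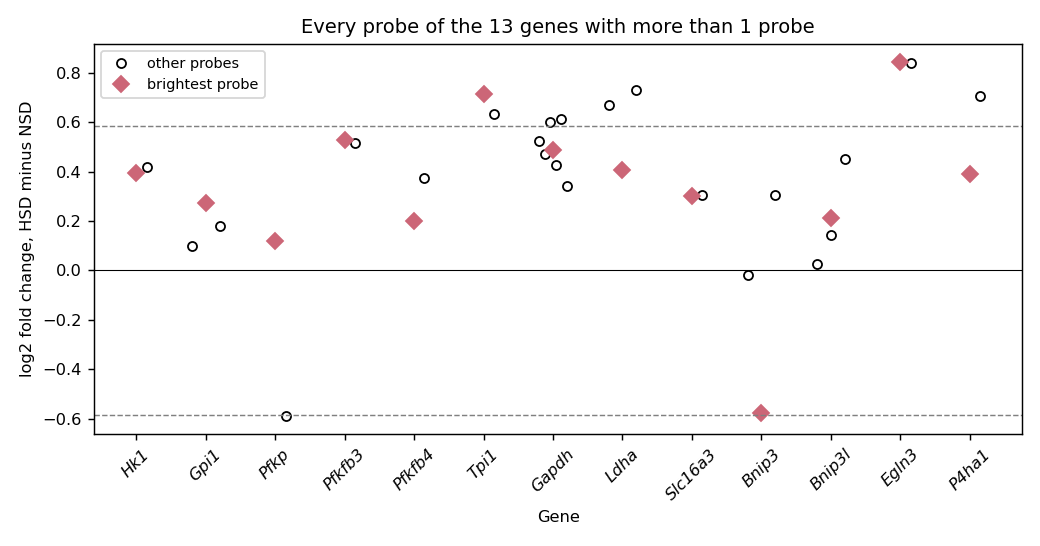
Log2 fold change, HSD minus NSD, of every probe of the 13 genes with more than 1 probe, with diamonds for the brightest probe, open circles for the others and dashed lines at 1.5-fold. Probes of a gene lie close together for Hk1, Pfkfb3, Slc16a3 and Egln3 and far apart for Bnip3, where they run from −0.58 to 0.30, and for Pfkp.

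Wider lists of these pathways were set beside the 35 genes. Of 112 further genes of glycolysis and pyruvate, hypoxia response, HIF control and the tricarboxylic acid cycle, 106 were usable, of which 51 were above 0 and 55 below, where 54.2% of all genes were above 0. Their median log2 fold change was −0.035, or 0.0091 after normexp background correction. The lists differed among themselves, with 17 of 35 above 0 for glycolysis and pyruvate, 22 of 37 for hypoxia-induced genes, 11 of 17 for HIF control and 3 of 20 for the cycle. The 1.5-fold line was passed upwards by 15 (14.2%) and downwards by 14 (13.2%), against 9.86% and 10.3% of all genes. These lists were not chosen in the same way as the 35 genes, and the difference between them was not tested.

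Of 35 usable other genes of glycolysis and pyruvate, 8 passed 1.5-fold upwards and 7 downwards, against 9.86% and 10.3% of all genes. The highest was Pdk4, another pyruvate dehydrogenase kinase, at 6.46 with NSD and 59.4 with HSD (log2 fold change 3.32, or 0.95 after normexp background correction). Pgm1, phosphoglucomutase, followed with 1016 and 2220 (1.24), then Ldhd (1.03), Pcx (0.90) and the glycogen synthase Gys1 (0.88). After normexp background correction Ldhd (0.47) and Pcx (0.40) were under 1.5-fold. Among those lower were Pdp1, a pyruvate dehydrogenase phosphatase, at 143.8 and 51.1 (−1.38), Pdk2 (−1.22), Gpd1 (−1.19) and Pfkfb2 (−0.95). Of these, Pdk2 (−0.10), Gpd1 (−0.32) and Pfkfb2 (−0.26) were under 1.5-fold after normexp background correction. Ldhb, the lactate dehydrogenase subunit that favours pyruvate, was at 258.6 and 128.9 (−0.89), opposite to Ldha. Mpc1 and Mpc2 form the mitochondrial pyruvate carrier, and Mpc2 was at 2768 and 4683 (0.87) while Mpc1 was at 3153 and 2367 (−0.30).

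Of 37 usable other hypoxia-induced genes, 7 passed 1.5-fold in each direction, against 9.86% of all genes upwards and 10.3% downwards. Their median log2 fold change was 0.11. Ier3, an early response gene, was at 847.7 and 2364 (1.59), Ero1a, an oxidase of the endoplasmic reticulum, at 262.3 and 513.1 (1.08) and the collagen cross-linking enzyme Lox at 45.02 and 75.3 (0.86, or 0.38 after normexp background correction). Vegfa, the angiogenic growth factor, was at 202.2 and 333.4 (0.84), and its other probe gave 0.43. The creatine transporter Slc6a8 was at 596.3 and 165.5 (−1.74). Vldlr and Ak4 were at −0.93 and −0.82, but after normexp background correction at −0.25 and −0.24, and their other probes gave 0.79, a bound since that Vldlr probe was not well above background with NSD, and −0.20. Car12, a carbonic anhydrase, was at 22.4 with NSD and not well above background with HSD, at least 4.70-fold lower, and its log2 fold change after normexp background correction was −0.33.

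Of the HIF subunits and their regulators, 1 of 17 was past 1.5-fold, the coactivator Ep300 at 1246 and 1882 (log2 fold change 0.71). Over all genes 9.86% passed that line upwards and 10.3% downwards. Hif1a was at 1060 and 795.4 (−0.30). Epas1, which encodes HIF-2 alpha, was at 2793 and 3043 (0.24), while its other, dimmer probes gave −0.69 and −0.40. The last is a bound, since that probe was not well above background with HSD. Among those that restrain HIF, Vhl was at 913.4 and 896.0 (0.087), Egln2 at 3273 and 3748 (0.31) and Hif1an at 91.7 and 74.8 (−0.18). Thus, of the prolyl hydroxylases, Egln1 and Egln3 were past 1.5-fold and Egln2 was not.

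The tricarboxylic acid cycle, which oxidises pyruvate carbon in mitochondria, lay the other way, with 17 of 20 genes below 0. Its median log2 fold change was −0.17, against 0.045 over all genes, of which 54.2% were above 0. Past 1.5-fold was Idh2, the mitochondrial isocitrate dehydrogenase, at 1393 and 530.1 (−1.28). It was 1 of 20 genes, where 10.3% of all genes were at least 1.5-fold lower. The 3 genes above 0 were Idh1 (0.51), Dlst (0.45) and Cs (0.096), named after their values were seen. Ogdh was below 0 by its brightest probe (−0.42), while its other probes gave 0.23 and 0.26. Over the alternative settings 16 to 18 genes of the cycle were below 0, with medians from −0.26 to −0.14.

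**Figure D5:**
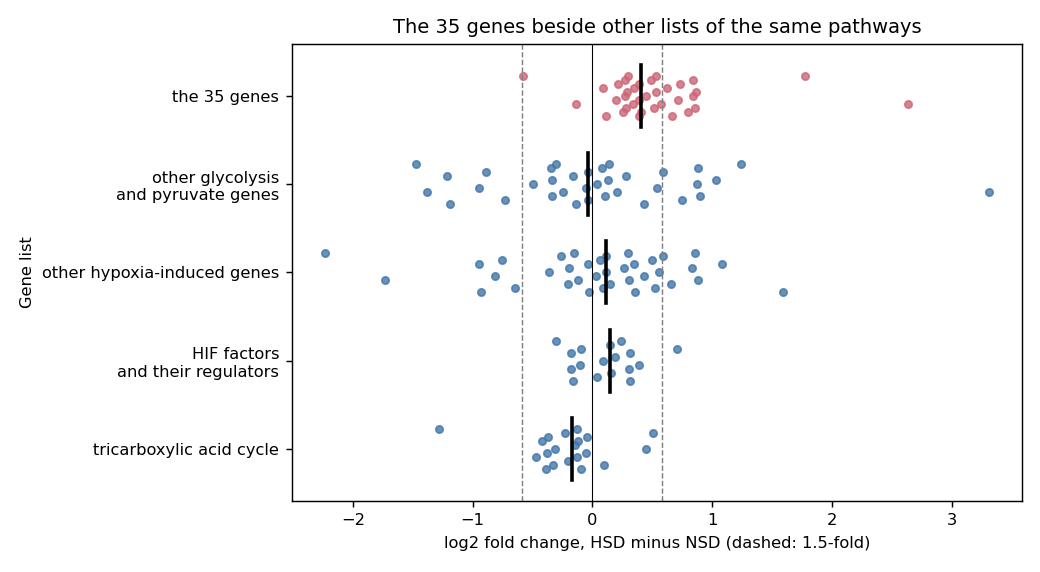
Log2 fold change, HSD minus NSD, of the 35 genes and of the usable genes of 4 other lists, 1 point per gene, with a black bar at each median and dashed lines at 1.5-fold. The medians are 0.40 for the 35 genes, −0.033, 0.11 and 0.15 for the other glycolysis, other hypoxia-induced and HIF lists, and −0.17 for the cycle, and Car12 is drawn at its bound.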

How the data were processed

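Gene expression was measured in 1 pooled RNA sample per diet on Agilent arrays of 1 colour that shared a slide. The authors deposited the scanner output with signal intensity per spot (Feature Extraction 11.0.1.1) and a table of log2 values. The authors normalized the deposited log2 values in GeneSpring GX, the method within it is not given in the sources used here, and their sorted values differ by at most 0.0516 between the arrays.

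Control spots and spots flagged as outliers were left out (162 with NSD, 179 with HSD), spots of a probe were averaged on the log2 scale, and each array's 75th percentile, 252.2 and 232.9 intensity units, was subtracted. No spot was saturated. A probe was well above background when at least 50% of its spots were. Probes were named through RefSeq transcripts (27223 of 39413), and a gene was usable when 1 array or both had its brightest probe well above background. A dim side was set to the lowest signal well above background (4.61 with NSD, 4.39 with HSD) unless its own signal was higher, which gives a bound. A gene whose dim side then lay above the other array after scaling was left out.

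With 1 array per diet, genes were counted at 1.5-fold with no test. Depth does not apply to arrays, and their number limits the precision. All 35 genes are named, and of the other lists up to 5 genes past 1.5-fold each way plus 9 fixed genes, except 1 gene that is not reported here. The 35 genes, the lists and the alternatives were chosen with earlier results of these data known. Alternatives were normexp (limma 3.58.1, R 4.3.3, offset 50), quantile, median and cyclic loess scaling, scaling on detected probes, the deposited values, other filters, flagged spots kept, the median over probes and a 2-fold threshold. The counting was tested on simulated data. Python 3.11.15, numpy 2.4.6 and pandas 2.3.3 were used.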

Additional observations from a re-analysis of the deposited data

How the results depend on the processing

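Of the 11 genes at least 1.5-fold higher with HSD, Tpi1, Pgk1, Pkm, Egln1, Egln3, Ankrd37 and Ddit4 were so in all 10 alternative settings of background, scaling, filter and probe choice. Over these settings 32 to 33 of the 35 genes were above 0, the count at least 1.5-fold higher ran from 9 to 12, and the median over all genes ran from −0.024 to 0.078. The count at least 1.5-fold lower was 1 instead of 0, the gene being Bnip3, with normexp (−0.77), quantile normalization (−0.63), the percentile of detected probes (−0.62), cyclic loess (−0.65) and the deposited log2 values (−0.66). With the median over a gene's probes, the median of the 35 genes was 0.49 instead of 0.40 and Bnip3 was at −0.020. Of the other genes of the pathways, 5 instead of 14 were lower with normexp, which shrinks differences of dim probes. At a 2-fold threshold 2 of the 35 genes were higher, and of the other genes 5 were higher and 7 lower. No paired analysis was possible because each diet has 1 array.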
